A study of Arabidopsis thaliana with 4 samples.

Results

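The genes described here are 5 Arabidopsis genes of light signalling, the circadian clock and chlorophyll synthesis: AT3G44450 (BIC2), HYH (AT3G17609), GI (AT1G22770), PORB (AT4G27440) and CHLM (AT4G25080). They are 5 of 8125 genes measured under a name, and each is represented by 1 probe set of the Affymetrix ATH1 array that names no other gene. The members were chosen by name, with their dark-against-light signals on these arrays already known. That contrast is therefore given for them as a description, without a test.

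The study asked how gene expression changes in darkness in wild type and in the mutant sfr6, and hybridised 1 biotin-labelled total RNA sample per group to 1 array. Wild type was Col-0, and sfr6 was an EMS (chemically induced) mutant in the Col-0 background, so both genotypes share that background. All plants grew for 7 days, on agar plates per the treatment text, and then spent 24 h in a cabinet at 240 microEinsteins on a daily cycle of 16 h light, 8 h dark. The 4 groups were wild type left for 3 h in that light, wild type kept for 3 h in aluminium foil, sfr6 left in the light and sfr6 kept in foil. The sfr6 locus, which encodes the Mediator subunit MED16, is not analysed here, and the clock time of harvest is not given in the sources used here. The labels do not say how many plants went into a sample, and no group has a replicate.

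Plants read blue light through cryptochromes, which BIC proteins hold inactive by blocking their pairing, and red light through phytochromes. Downstream, the bZIP transcription factor HY5 and its homologue HYH promote light-grown development and are broken down in the dark. GIGANTEA is a large clock protein expressed with a daily rhythm, which acts with blue-light-absorbing F-box proteins in timing and flowering. Chlorophyll is made from glutamate through magnesium porphyrins. CHLM methylates magnesium protoporphyrin IX, and PORB carries out the later, light-requiring reduction of protochlorophyllide.

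Values are MAS5 signals on a linear scale as deposited. A signal under 22.1, the 40th percentile of all signals, was treated as that floor in differences, and where the dimmer signal of a fold lay under it, the fold is a lower bound, marked by the words at least. The share of probe sets over the floor was between 58.2% and 61.6% per array, and array medians were between 34.0 and 38.6. The tissue label reads cell culture. Photosynthetic markers were nevertheless bright: LHCB4.1, LHCB4.2, LHCB4.3 and RCA, the 4 of 9 listed that were measured, lay between 229 and 3695 over all arrays. The root marker PYK10 read 1823 to 3004 and EXPA7 23.3 to 54.6 (2 of 7 listed root markers measured), and the guard cell marker FAMA 25.2 to 38.7 (1 of 4). In darkness PYK10 fell by 0.51 on the log2 scale (limma adjusted p 0.0083) and LHCB4.3 by 0.41 (limma adjusted p 0.034), each with lower dark signals in both genotypes, and the other 5 markers did not pass. The 25S ribosomal RNA probe set, a control, was at 119.8 (sfr6) and 122 (wild type) in light, and at 1321 (sfr6) and 364 (wild type) in dark. The GAPDH control probe sets read between 1026 and 2741 in light and between 629 and 1863 in dark. Each was lower in dark in both genotypes and higher in sfr6 than in wild type in both conditions. The part of these markers and controls in the differences below was not tested. In whole seedlings, fewer cells of a type and less RNA per cell cannot be told apart.

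In darkness, transcripts of BIC2, GI and HYH were lower in both genotypes, that of PORB was higher in both, and that of CHLM stayed within 1.14-fold over the 4 arrays. BIC2 differed most, by 18.2-fold in the wild-type pair of arrays and by at least 16.1-fold in the sfr6 pair. The values below show how far each gene moved, and on which arrays.

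AT3G44450, the cryptochrome inhibitor gene BIC2, read 512 in wild type in light, 28.1 in wild type in dark, 355 in sfr6 in light and 16.1 in sfr6 in dark. Both light signals were far above both dark signals, and the sfr6 dark signal lay under the floor. Its dark signal was thus 18.2-fold below the light signal for wild type, a log2 difference of -4.19, and at least 16.1-fold below for sfr6, a value bounded by the floor. In wild type, on floored signals, this difference was at rank 2 from the lowest among 14513 probe sets; in sfr6 the floor sets the rank. The average over the genotypes was -4.10 ± 0.15 (SE of the additive fit), and through its sfr6 part it is also bounded by the floor.

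HYH, the bZIP homologue of HY5, read 195 in wild type in light, 75.2 in wild type in dark, 137 in sfr6 in light and 63.1 in sfr6 in dark. Every one of these signals was over the floor, and both light signals were above both dark signals. Dark HYH signals were 2.59-fold below light ones for wild type and 2.17-fold below for sfr6, log2 differences of -1.37 and -1.12. These stood at rank 510 and rank 775 from the lowest.

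GI, the clock gene GIGANTEA, read 224 in wild type in light, 30.4 in wild type in dark, 160.4 in sfr6 in light and 17.6 in sfr6 in dark. Light and dark arrays did not overlap, and sfr6 in dark was again under the floor. For wild type the dark GI signal was 7.37-fold below the light one, and for sfr6 at least 7.25-fold below, log2 differences of -2.88 and -2.86, the latter bounded by the floor. GI stood at rank 33 from the lowest in wild type on floored signals. Its highest floored signal was 10.1 times its lowest, a range larger than that of 99.2% of 15121 probe sets.

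PORB, which encodes the light-requiring protochlorophyllide reductase, read 276 in wild type in light, 688 in wild type in dark, 195 in sfr6 in light and 594 in sfr6 in dark. Here both dark arrays were above both light arrays. Dark PORB signals were 2.49-fold (wild type) and 3.04-fold (sfr6) above light ones, with log2 differences of 1.32 and 1.61. Counted from the highest, these were rank 553 and rank 342.

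CHLM, which encodes the methyltransferase earlier in the chlorophyll pathway, read 1291 in wild type in light, 1318 in wild type in dark, 1186 in sfr6 in light and 1354 in sfr6 in dark. The arrays thus lay close together, with the highest 1.14 times the lowest, and 7.27% of probe sets had a smaller range. Dark CHLM signals differed from light ones by 0.03 (wild type) and 0.19 (sfr6) on the log2 scale. The average log2 difference over the genotypes was 1.46 ± 0.12 (SE) for PORB and 0.11 ± 0.10 for CHLM.

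**Figure D1:**
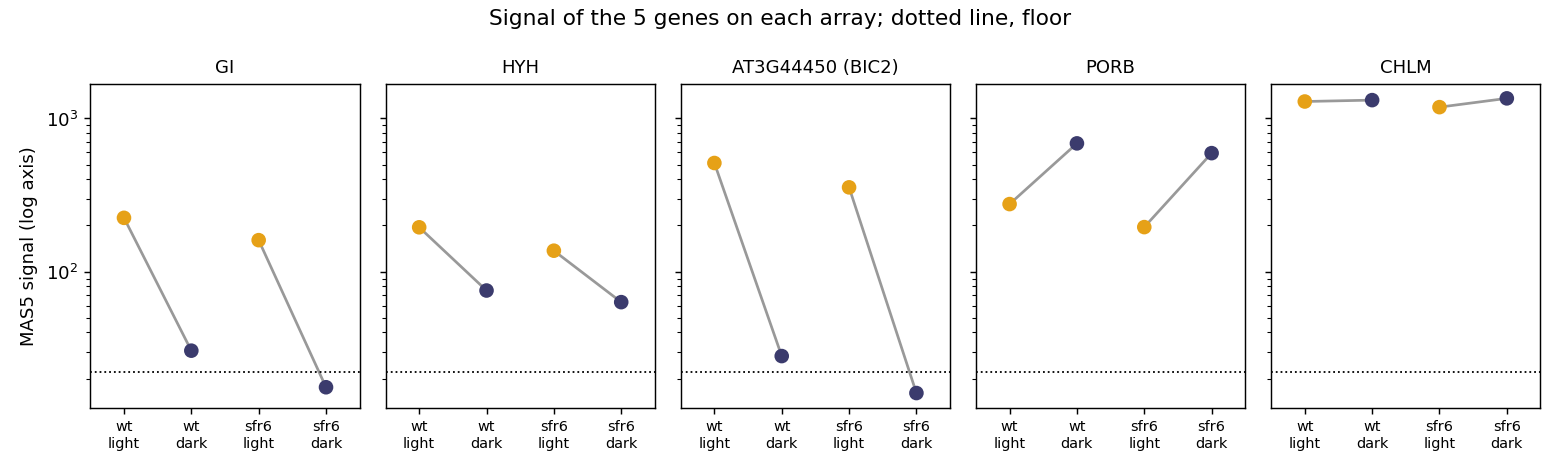
MAS5 signal (log axis) of each of the 5 genes on the 4 arrays, with 1 point per array; orange points are light, dark blue points are dark, lines join the arrays of 1 genotype, and the dotted line is the floor at 22.1. The BIC2 line drops from 512 to 28.1 for wild type and from 355 to 16.1 for sfr6, while CHLM stays between 1186 and 1354.

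At least 2-fold lower in dark in both genotypes were 3 of the 5 genes, against 4.60% of 13956 probe sets that entered both comparisons, and 1 of the 5 was at least 2-fold higher, against 4.88%. The choice of the genes used this contrast, so nothing is read from these shares.

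**Figure D2:**
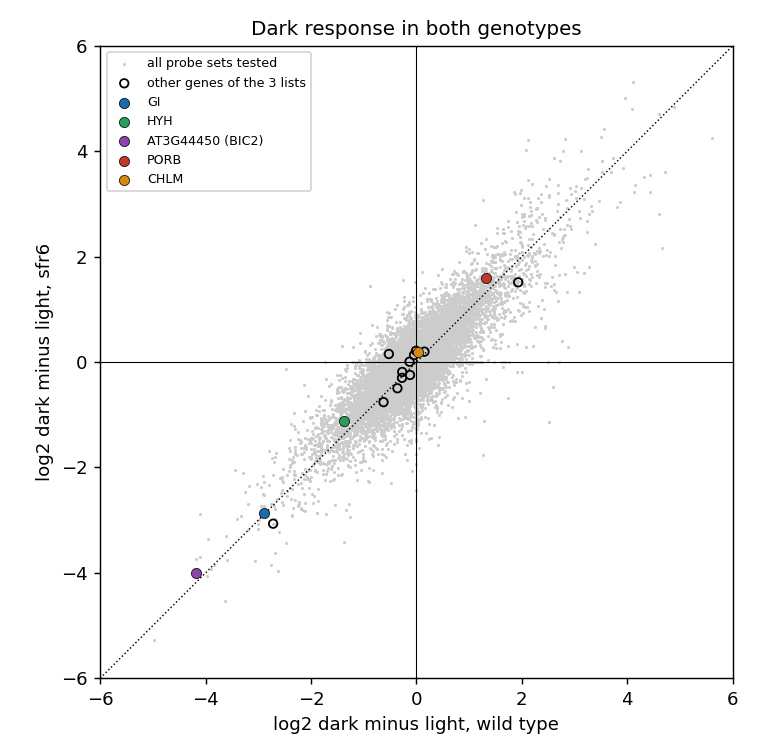
Log2 difference of dark from light in wild type (horizontal) and in sfr6 (vertical) on floored signals, for 15121 probe sets (grey), the 5 genes (coloured) and 12 other genes of the 3 lists (open circles); the dotted line marks equal responses. BIC2 lies at the lower left end of the cloud, at -4.19 on the horizontal axis, and PORB at 1.32 and 1.61.

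A further question is whether the other measured genes of these pathways moved in darkness. The locus AT3G52740, entered in the light signalling list as BIC1, the paralogue of BIC2, fell together with it. Of the clock genes, the locus listed as CDF5 rose and the one listed as RVE6 fell. Of 44 listed genes of chlorophyll and tetrapyrrole synthesis and breakdown, 8 besides the members were measured, and 7 of these did not pass the test. The 3 lists held 146 genes, of which 12 besides the members were measured under a name. By limma (additive fit, Benjamini-Hochberg adjusted p under 0.05), 1 of these 12 rose and 3 fell. Over all 15121 probe sets, 15.4% rose and 17.8% fell, together 33.1%, so the share of the 12 was close to the background. The median of their log2 dark differences was -0.20 (wild type) and -0.09 (sfr6), against -0.03 in either genotype over all probe sets.

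AT3G52740 (BIC1 in the list) was the 1 light signalling gene measured besides BIC2 and HYH. It read 237 in wild type in light, 36.1 in wild type in dark, 191 in sfr6 in light and 22.8 in sfr6 in dark, so both dark arrays were below both light arrays. Dark signals were 6.58-fold below light ones for wild type and 8.38-fold below for sfr6, an average log2 effect of -2.89 ± 0.18 (limma adjusted p 0.00032), or -1.88 with the floor at the 60th percentile, where it still passed. The other paralogues HY5, PORA and PORC are not analysed here. The phytochrome signalling gene FHL was named on the array but stayed under the floor on all 4 arrays, at 8.5 to 15.7.

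Of 3 other clock genes, 1 rose, 1 fell and 1 did not pass. The locus listed as CDF5, a gene for a DOF-type transcription factor acting downstream of GI, read 28.0 in wild type in light, 107 in wild type in dark, 30.7 in sfr6 in light and 87.6 in sfr6 in dark. Its dark signals were the higher ones in both genotypes, 3.82-fold and 2.86-fold, with an average log2 effect of 1.72 ± 0.19 (limma adjusted p 0.0018), or 0.74 with that higher floor, where it still passed. The locus listed as RVE6, a MYB-like gene of the REVEILLE family, read 99.98 in wild type in light, 64.9 in wild type in dark, 89.6 in sfr6 in light and 52.9 in sfr6 in dark. Its dark signals were the lower ones in both genotypes, with an average log2 effect of -0.69 ± 0.17 (limma adjusted p 0.024), and missed the threshold with median centring of the arrays, at 0.051. TIC, a nuclear regulator of clock period, had an average log2 effect of 0.10.

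Of 8 other chlorophyll and tetrapyrrole genes, 0 rose, 1 fell and 7 did not pass. GSA1, an aminomutase of 5-aminolevulinate synthesis, read 239 in wild type in light, 186 in wild type in dark, 362 in sfr6 in light and 257 in sfr6 in dark. It fell by 0.43 on the log2 scale (SE 0.12, limma adjusted p 0.036), a small difference that missed the threshold with median centring (0.107) and without the intensity trend of the variance (0.073). The other 7, HEMA2, HEMB1, HEME1, HEME2, CHLI2, CHLP and NOL, had average log2 effects between -0.29 and 0.18.

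**Figure D3:**
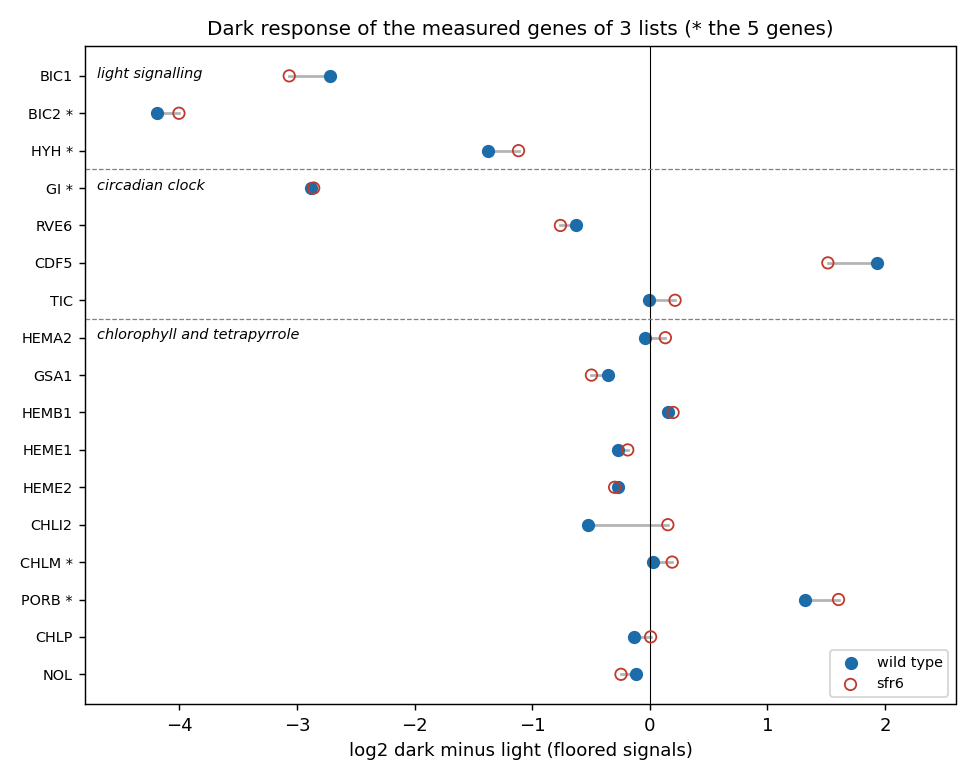
Log2 difference of dark from light on floored signals for the 17 measured genes of the light signalling, clock and chlorophyll lists, in wild type (filled blue) and sfr6 (open red); asterisks mark the 5 genes and dashed lines separate the lists. BIC2, BIC1 and GI lie furthest to the left and CDF5 and PORB to the right. The other chlorophyll genes lie nearer to 0, at the lowest -0.52 (CHLI2, wild type) and -0.50 (GSA1, sfr6).

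The next question is whether the mutant answered darkness differently. The dark responses of 0 of the 5 genes differed by 2-fold or more between the genotypes, against 2.56% of all probe sets, a share at which 0 of 5 says nothing particular about them. The response in sfr6 less that in wild type was 0.26 on the log2 scale for HYH, 0.29 for PORB and 0.16 for CHLM, where all signals were over the floor. Smaller response differences in size than these were held by 55.2%, 60.1% and 37.5% of probe sets. For GI and BIC2 the difference was 0.02 and 0.18 on floored signals but -0.31 and -0.27 on the signals as deposited, since the sfr6 dark signals lay under the floor, so their direction depends on it. With 1 array per group these differences have no residual degree of freedom and were not tested. Over all 15121 probe sets their SD was 0.40.

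The remaining question is whether the mutant's level of the 5 genes differed from that of wild type under one and the same light condition. In the light, all 5 signals were lower in sfr6, and those of BIC2, HYH, PORB and GI by nearly the same amount. In the dark, 4 were lower and CHLM was 1.03-fold higher. Over all probe sets, the median log2 genotype difference was 0.01 (light) and 0.02 (dark). A lower signal in sfr6 was thus common in either condition, and nothing is read from these counts. With spike-in centring, CHLM was higher in sfr6 in the light too, at 0.10. The differences of the 5 genes, each of 1 array against 1 array, were not tested singly. The genotype effect averaged over light and dark was tested, and passed for none of the 5 genes by limma (unadjusted, 3 had a p under 0.05). The choice of the 5 genes did not use the genotype contrast, although results of it were known.

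In the light, the sfr6 signal was 1.44-fold lower for BIC2, 1.42-fold for HYH, 1.41-fold for PORB, 1.40-fold for GI and 1.09-fold for CHLM. The corresponding log2 differences were -0.53, -0.51, -0.50, -0.48 and -0.12, against a median of 0.01 over all probe sets. Lower differences than these were held by 7.87%, 8.53%, 8.86%, 9.45% and 34.6% of 14658 probe sets. A shift of this size was thus not rare on these arrays.

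In the dark, the differences were smaller for HYH, at 1.19-fold lower in sfr6, and for PORB, at 1.16-fold lower. GI was at least 1.38-fold lower and BIC2 at least 1.27-fold lower, because their sfr6 signals lay under the floor. Lower in sfr6 in both conditions were 4 of 5 genes, against 28.6% of 13467 probe sets. The listed loci BIC1 and RVE6 and the genes HEMA2 and CHLP were also lower in both, while 5 of the 12 other list genes were higher in both.

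By limma, 0 of 5 genes passed for genotype at an adjusted p under 0.05, against 1.28% of 15121 probe sets. At an unadjusted p under 0.05 there were 3 of 5, BIC2, GI and PORB, against 19.8%. The average log2 effect of sfr6 was -0.44 ± 0.15 for BIC2 (adjusted p 0.195), -0.47 ± 0.17 for GI (adjusted p 0.198) and -0.36 ± 0.12 for PORB (adjusted p 0.178). It was -0.38 ± 0.16 for HYH (adjusted p 0.253) and -0.04 ± 0.10 for CHLM (adjusted p 0.857). For BIC2 and GI this average is bounded by the floor, which replaced their sfr6 dark signals. Over the alternatives run it lay between -0.67 and -0.26 for BIC2 and between -0.64 and -0.24 for GI. The 4 measured photosynthetic markers had average genotype effects of -0.65 (LHCB4.3) to -0.09 (RCA), the root markers -0.21 (PYK10) and 0.62 (EXPA7), and FAMA -0.40, with 0 of these passing by limma. Their part in the genotype differences was not tested. Over the alternatives run, the adjusted p lay between 0.065 and 0.499 for GI, between 0.189 and 0.434 for HYH and between 0.143 and 0.364 for PORB. For BIC2 it lay between 0.048 and 0.467, and the lowest of these, which passes, came with no floor, where signals of 28.1 and 16.1 enter as they stand.

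Centring the arrays on 18 spike-in control probe sets shifted the genotype difference of the median probe set by 0.22 (light) and 0.14 (dark). The light differences of BIC2, HYH, PORB and GI were then -0.31, -0.28, -0.28 and -0.26, still lower in sfr6, while that of CHLM turned to 0.10. Their dark differences, on floored signals, were -0.28 (BIC2), -0.11 (HYH), -0.07 (PORB), -0.40 (GI) and 0.18 (CHLM). With the floor at the 60th percentile instead, the dark differences of GI and BIC2 were 0, as both dark signals lay under that floor. On the deposited scale 63 probe sets were called higher in sfr6 and 130 lower; with spike-in centring these were 820 and 182.

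Among the 12 other list genes, 0 passed for genotype by limma, against 1.28% of 15121 probe sets. At an unadjusted p under 0.05 there were 3, against 19.8% of probe sets, so nothing is read from these counts. The 3 were BIC1, with an average log2 effect of -0.49, and GSA1 and CHLI2, which were higher in sfr6, at 0.53 and 0.59. GSA1 had an adjusted p of 0.085 and CHLI2 of 0.154; with spike-in centring both passed, at 0.034 and 0.0499. CHLI2, a magnesium chelatase subunit gene, read 185 in wild type in light, 129 in wild type in dark, 221 in sfr6 in light and 245 in sfr6 in dark.

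**Figure D4:**
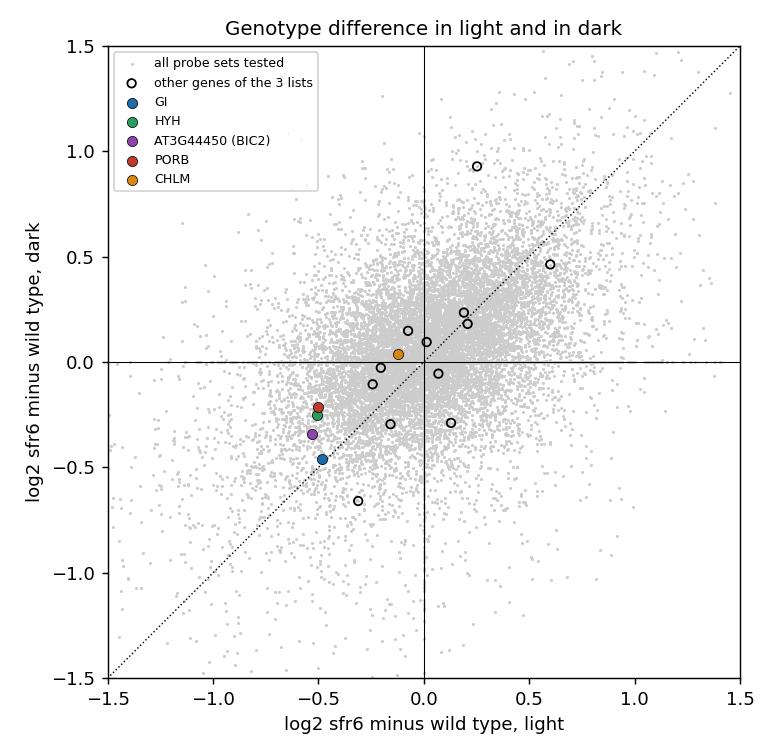
Log2 difference of sfr6 from wild type in light (horizontal) and in dark (vertical) on floored signals, for all probe sets tested (grey; 157 that lie beyond 1.5 on an axis are not drawn), the 5 genes (coloured) and 12 other list genes (open circles). BIC2, HYH, PORB and GI lie between -0.53 and -0.48 on the horizontal axis, inside the cloud of all probe sets, and CHLM lies at -0.12.

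Finally, named genes of like pattern were sought for each of the 5 genes, as the root mean square distance of the 4 floored log2 signals after each gene's own mean was taken off, over 8124 other named genes and 4 arrays. For GI the closest were AT3G48460, at 0.08, AT3G52740 (BIC1 in the list), at 0.09, and AT5G42760, at 0.19. The sfr6 dark signal of GI enters as the floor itself, so these distances and their order depend on the floor. AT3G48460 read 483, 64.6, 359 and 54.3 in the order wild type light, wild type dark, sfr6 light and sfr6 dark, and so also lay low on both dark arrays. The distance between GI and BIC2 was 0.61, which placed BIC2 at rank 74 for GI.

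For BIC2 the closest were AT1G60590, AT2G27420 and the expansin gene EXPA8, at distances of 0.14, 0.25 and 0.30. All 3 were high in light and at 10.3 to 25.8 in dark, close to or under the floor. Signals under the floor, that of BIC2 in sfr6 in dark among them, enter as the floor itself. The distances from BIC2 and from GI thus depend on the floor, and likeness on the dark arrays is partly set by it. BIC2 had 2 genes within a distance of 0.25 and GI had 8, while HYH had 176 and PORB 231. For HYH the closest were ARD4, AT1G48750 and AT1G32690, each at 0.08.

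For PORB the closest were AT1G26800 at 0.03, AT5G24490 at 0.04 and AT2G38820 at 0.05. AT5G24490 read 1081, 2903, 788 and 2443 in the same order of arrays, higher on both dark arrays and lower in sfr6 than in wild type, as PORB was. CHLM had 4072 named genes within 0.25, the closest being AT2G41960, TTL and AT3G52570 at 0.01 to 0.02, so its pattern did not set it apart from them. With Pearson's correlation, which ignores the size of a change, 0 of the 3 closest genes were shared for GI, HYH, BIC2 and PORB and 1 for CHLM.

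**Figure D5:**
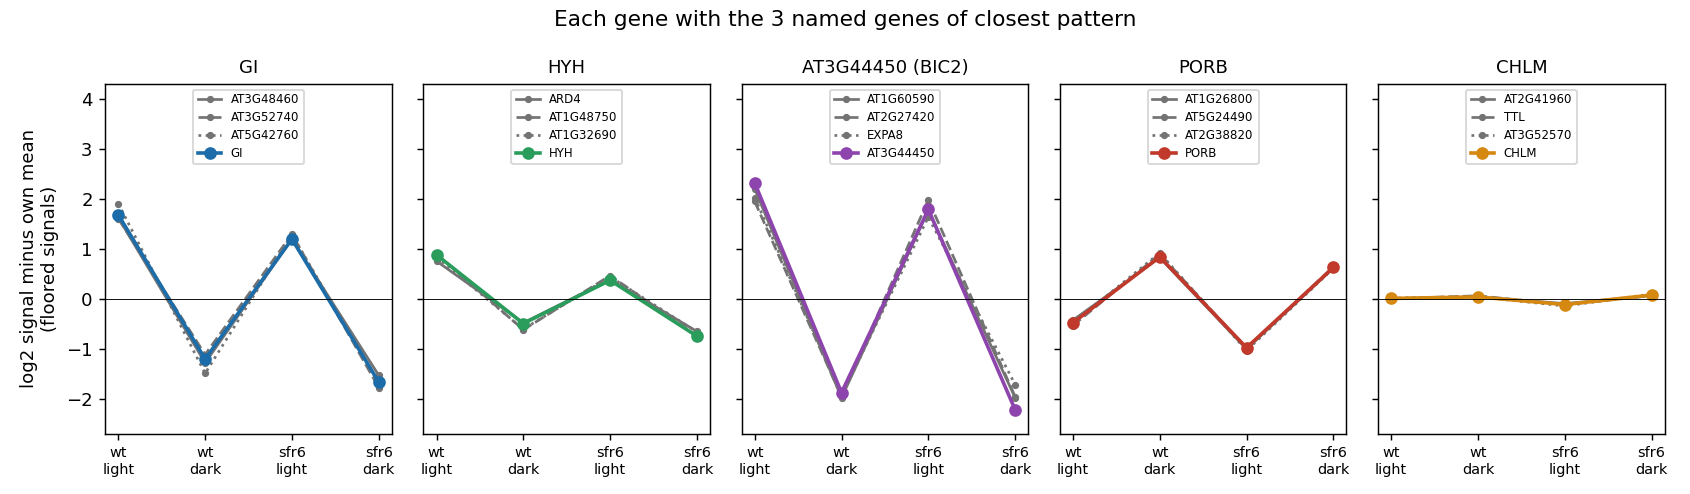
Floored log2 signal minus each gene's own mean on the 4 arrays, for the 5 genes (thick coloured lines) and the 3 named genes of closest pattern (grey lines). The panels of GI, HYH and BIC2 show high light and low dark arrays, that of PORB the opposite, and that of CHLM stays near 0.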

How the data were processed

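The authors deposited linear MAS5 signal intensities, with MAS5 named in the submitters' processing notes without a version; genome build and scanner steps are not given in the sources used here. The mean signal without the lowest and highest 2% was 100.01 on each array. Of 22810 probe sets, 64 controls were left out. Genes came from the platform's probe annotation, matched to a RefSeq gene table (TAIR10.1) by gene ID: 13513 probe sets have 1 gene (13436 matched), 503 several and 8730 none. Where neither names a locus, the text gives the locus and the name in the gene list used here. Sequences were not used here.

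Signals were floored at 22.1 before log2; the 15121 probe sets that reached it on 1 or more arrays were tested, among them all 5 genes, of which 3 exceeded it on every array. Average dark and genotype effects were fitted by an additive limma 3.58.1 model (R 4.3.3; intensity trend, Benjamini-Hochberg). That model has 1 residual degree of freedom, the difference between the genotypes' dark responses, and a prior of 5.15. Its p-values set each effect against an error term from that departure from additivity and from the prior fitted over all probe sets. The spread between replicates does not enter them. The fit was run on simulated additive data with no floor and with variances drawn from its own prior, which checks the code and not these arrays. "Rose" and "fell" mark genes that passed for the dark effect. Of several probe sets for 1 gene, the brightest was used.

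The 5 genes, the lists, the tests and the alternatives were chosen with earlier results of these data known. The rule for naming genes took the 5 genes, list genes that passed the dark or genotype test or differed 2-fold, measured paralogues and the 3 closest named genes by pattern; the other list genes and FHL were named after their values were seen. Alternatives were other floors, other scalings between arrays, no trend and a stricter filter. Figures were drawn with matplotlib 3.10.9. Having 4 arrays in all limits how precise any value is.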

Additional observations from a re-analysis of the deposited data

Results flagged for a closer look

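The dark response had opposite signs in wild type and sfr6 for 4 of the list genes. In the order wild type, sfr6, the log2 differences were -0.52 and 0.15 for CHLI2 and -0.008 and 0.21 for TIC. They were -0.04 and 0.13 for HEMA2 and -0.13 and 0.007 for CHLP. For TIC, HEMA2 and CHLP the sign in 1 genotype thus rests on a value close to 0. The share of all probe sets with opposite signs was not counted, so nothing is read from this count. The response in sfr6 less that in wild type was 0.68 on the log2 scale for CHLI2, 0.22 for TIC, 0.18 for HEMA2 and 0.14 for CHLP. These differences were not tested, since each group has 1 array, and all but that of CHLI2 were smaller than the SD of 0.40 over all probe sets.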

How the results depend on the processing

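Of 188 values of the 5 genes under alternatives, 183 moved by less than 1.5-fold or kept their side of the test. A sign changed in 10 of the 188, all of them differences that were under 2-fold and not called: the response difference of GI in 5 (-0.31 to -0.06 against 0.02) and of AT3G44450 in 2 (-0.27 and -0.24 against 0.18), and for CHLM the genotype difference in light and on average (0.10 and 0.14, spike-in centring) and in dark (-0.04, median centring). With the floor at the 60th percentile, the dark differences were -1.95 and -1.47 for GI and -3.14 and -2.61 for AT3G44450 (wild type, sfr6), since a higher floor cuts off their dark signals. With no floor (log2 of the signal plus 1), the genotype effect of AT3G44450 was -0.65 and passed. The floor at the 60th percentile also lowered the count of probe sets that fell in darkness from 2684 to 1727. Genotype calls depended on the setting: from 63 higher and 130 lower in sfr6, they went to 251 and 344 with the floor at the 20th percentile, 0 and 3 at the 60th, 397 and 455 with none, 12 and 75 with quantile normalization, 9 and 83 with median centring, 820 (higher) with spike-in centring, each spike-in taken relative to its own mean, 0 and 2 with no intensity trend, and 278 and 340 when only probe sets that exceeded the floor on every array were kept. Where limma called 0 higher, 1157 (floor) and 1606 (no trend) were higher at an unadjusted p under 0.05. The causes were not tested. Median centring, which moved the median dark difference by 0.16 in wild type and 0.10 in sfr6, left 1 clock gene (CDF5) and 0 chlorophyll genes called for darkness, and 0 chlorophyll genes were called without the trend. That last filter drops GI and AT3G44450, which could not be fitted there. With 1 array per group, leaving out an array leaves no residual degree of freedom. No paired analysis was possible because each group has 1 array, so that no replicate number repeats; the additive fit sets dark against light within genotype.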
